A study of Mus musculus with 5 samples.

Results

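Histone genes were followed in poly(A)-selected RNA of erythroid cells from mouse fetal liver, in Csnk2b knockout (KO) and control libraries; Csnk2b encodes the regulatory subunit of the protein kinase CK2. Members were the protein-coding genes named as histones (symbols beginning Hist1h, Hist2h, Hist3h, Hist4h, H2af or H3f, the newer H1f, H2a, H2b, H2ac, H2bc, H3c and H4c symbols, H1f0 and H2ax) with at least 5 counts over all libraries. This gave 58 of the 39179 genes in the count table, 49 of them replication-dependent and 9 variants. A further 13 protein-coding genes matched the symbols but fell under 5 counts, 12 of them at 0 in every library. For 1 gene in 1 library a count of 0 allows up to 3 counts, or 0.193 to 0.231 CPM, the count per 1000000 counts of the scaled library.

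The KO group (n = 2) was Csnk2bfl/fl Vav+/Cre and the control group (n = 3) was Csnk2b+/+ Vav+/Cre, both C57BL/6, both at 14.5 days post conception and both sorted for the erythroid surface marker TER119. Every animal, controls included, therefore carried the Cre transgene, whose Vav promoter is active across the blood-forming lineages and not in erythroid cells alone. Whether a library came from 1 embryo or from pooled embryos is not in the labels, and p-values here reflect only how these libraries vary, which may be technical. Csnk2b itself, the gene for the CK2 beta subunit, had 112 and 95.6 CPM in the KO libraries, against 186, 186 and 169 CPM in controls. It was 1.74-fold lower in KO (log2 fold change −0.80 ± 0.09 SE, edgeR adjusted p = 0.0018), so a part of its RNA was still present. The labels do not name the deleted exons.

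Replication-dependent histone genes supply the H1, H2A, H2B, H3 and H4 proteins that package newly made DNA, and lie mostly in clusters. Their mRNAs usually end just after a short stem-loop, bound by the stem-loop-binding protein SLBP and cut with the help of the U7 snRNP, and carry no poly(A) tail. Variant histone genes lie alone, are used throughout the cell cycle and usually make spliced or single-exon mRNAs with a poly(A) tail. Selection on oligo-dT therefore captures variants as ordinary mRNAs, while of the replication-dependent genes it captures mainly polyadenylated forms, which several of these genes are known to make in differentiating cells.

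The 3′ ends of the annotated transcripts show which genes have sequence beyond the stem-loop. The elements are printed for the genes on which the results turn, as DNA in transcript sense, with the 2 arms of the stem in capitals and the loop in lower case.
Hist1h4i, chr13:22040966-22040981, minus strand, GRCm38: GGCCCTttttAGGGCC
Hist1h1c, chr13:23739512-23739527, plus strand, GRCm38: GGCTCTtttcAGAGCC
Hist3h2ba, chr11:58949349-58949364, plus strand, GRCm38: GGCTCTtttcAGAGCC
Hist1h2bg, chr13:23571843-23571858, plus strand, GRCm38: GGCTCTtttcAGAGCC
Hist2h4, chr3:96262939-96262954, minus strand, GRCm38: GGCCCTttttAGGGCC
H2afx, chr9:44335240-44335255, plus strand, GRCm38: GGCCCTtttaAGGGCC
All 6 stems pair along their 6 bases. Hist1h1c, Hist3h2ba and Hist1h2bg carry the same 16 letters, and so do the H4 genes Hist1h4i and Hist2h4.

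A stem-loop of this form was found within 100 bases after the stop codon in 34 of the 49 replication-dependent genes and in 1 of the 9 variants, H2afx. In Hist1h4i it begins 30 bases after the stop codon, and the GENCODE M21 transcript goes on for 330 bases beyond it. The Hist1h1c transcript goes on for 840 bases, that of Hist3h2ba for 169, that of Hist1h2bg for 155 and that of H2afx for 822. No stem-loop was found in Hist1h2bc, whose annotated form with the longest end has 2 exons and 742 bases after the stop codon, nor in Hist2h2be with 2192 bases or in the variant H1f0 with 1198 bases. For 10 replication-dependent genes the annotation holds fewer than 16 bases after the stop codon, too few to contain the element.

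Annotated ends of this kind went with most of the replication-dependent signal. The 17 genes whose transcript runs at least 100 bases past the stem-loop held 70.0% ± 0.318 of the summed replication-dependent CPM in KO and 66.4% ± 0.664 in controls (SD, n = 2 and 3). The 17 genes whose transcript stops sooner after it held 3.12% ± 1.06 in KO and 3.90% ± 0.731 in controls. The 15 genes with no element found, Hist1h2bc and Hist2h2be among them, held 26.9% ± 1.37 in KO and 29.7% ± 0.423 in controls. A polyadenylation hexamer (AATAAA or ATTAAA) stood after the element, or after the stop codon where no element was found, in 16 of the 49 genes, and these held 88.7% ± 2.31 of the CPM in KO and 86.1% ± 1.14 in controls. Most of the level of the 17 genes running at least 100 bases past the stem-loop came from Hist1h1c and Hist1h4i. In KO these had means of 65.3 and 55.1 CPM, of 155 CPM for the 17. In controls they had 58.5 and 33.5 CPM, of 124 CPM. Longer transcripts also collect more reads and hold more chance hexamers, and the shares above are not per length.

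**Figure D1:**
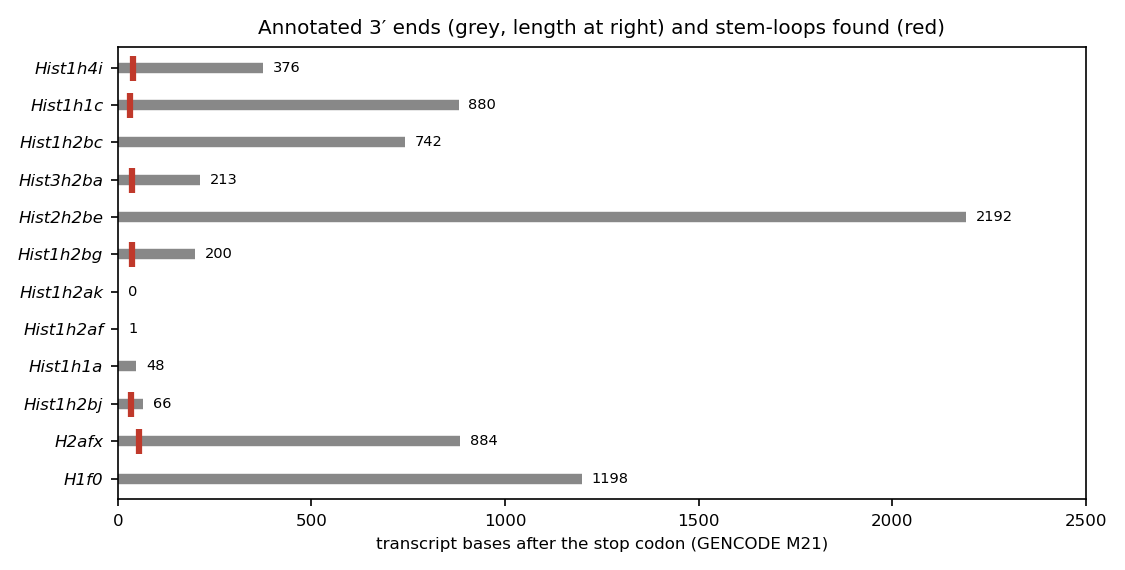
Annotated transcript after the stop codon (grey bar, bases, GENCODE M21) and the stem-loop found in it (red) for the 10 replication-dependent genes of highest level per length and for H2afx and H1f0. The bars of Hist1h4i and Hist1h1c run 376 and 880 bases, far past the stem-loop, while Hist1h2bc and Hist2h2be have long ends with no stem-loop found.

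Totals were 13187094 and 14986630 counts in the KO libraries and 13543392 to 15366021 in controls, so 1 CPM corresponded to 13 to 15.5 counts. The 58 histone genes took 0.138% and 0.139% of all counts in KO and 0.127% to 0.132% in controls. Of the cell type markers, 4 of 8 macrophage genes were lower in KO (edgeR adjusted p under 0.05), against 1.83% of all genes tested; all 8 had a log2 fold change below 0, and their summed level was 83.0 and 77.2 CPM in KO against 103 to 115 CPM in controls. Erythroid markers were abundant in every library, 6 genes summing to 46860.3 and 37017 CPM in KO and to 41894 to 51712 CPM in controls, with log2 fold changes of −0.32 to −0.04 and edgeR adjusted p of 0.14 or more. Summed levels of the other markers overlapped between groups for granulocytes (680.0 and 574 CPM in KO, 495 to 715 CPM in controls), hepatocytes (248 and 299 CPM in KO, 211 to 333 CPM in controls) and lymphoid cells (7.30 and 8.75 CPM in KO, 8.16 to 9.08 CPM in controls, with Cd3e at 0 counts in every library). Megakaryocyte markers were at 62.6 and 93.4 CPM in KO and 58.4 to 65.3 CPM in controls, and mast cell markers at 7.07 and 6.09 CPM in KO and 6.17 to 9.46 CPM in controls. In bulk RNA, fewer cells of a type and less RNA per cell cannot be told apart. Control replicate 3 had 454 counts of the Y-linked Eif2s3y and 367 of Ddx3y, against 0 and at most 2 counts in each of the other 4 libraries. It had 547 CPM of Xist, against 788 to 1026 CPM in the other 4 libraries, so results that rest on it are also given without it.

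Between KO and control, 2 histone genes rose and 0 fell among the 31 with enough counts for the test. They were H1f0, which encodes the linker histone H1.0, and Hist1h4i, which encodes histone H4. Over all 13000 genes tested 5.15% were higher and 1.83% lower (6.98% in either direction), so the share of histone genes called, 6.45%, was close to the background. The 6 histone genes with both KO libraries above every control and the 3 with both below compare with 21.9% and 19.3% of all genes (41.2% without overlap in either direction). DESeq2 and limma-voom also gave 0 lower calls, and 6 of the 31 had an unadjusted p under 0.05, against 23.8% of all genes.

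**Figure D2:**
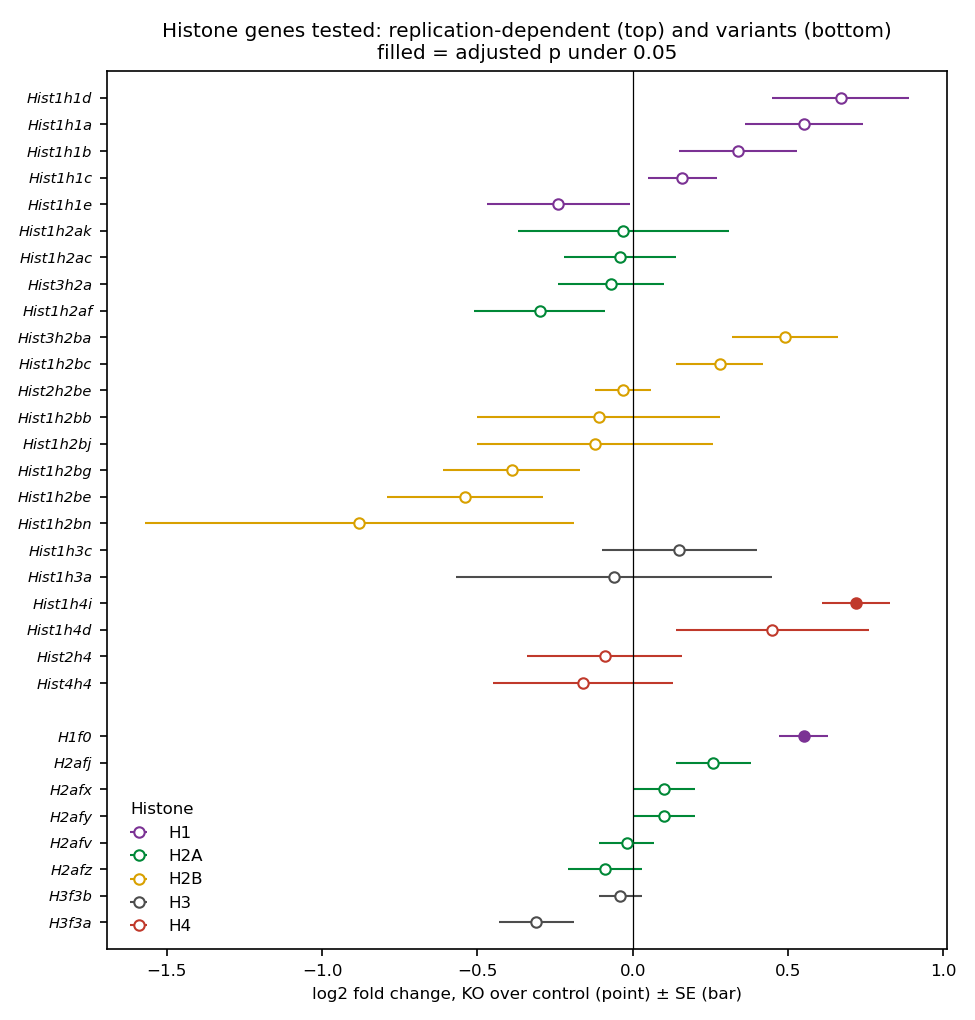
Log2 fold change, KO over control, with its standard error for the 31 histone genes tested, coloured by histone and filled where the edgeR adjusted p was under 0.05. Hist1h4i at 0.72 and H1f0 at 0.55 are the filled points, and 4 of the 5 replication-dependent H1 genes lie above 0.

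Within the replication-dependent genes 23 of 49 were tested, with 1 higher and 0 lower, against 5.15% and 1.83% of all genes. Of the 23, 4 had an unadjusted p under 0.05, against 23.8% of all genes. The median log2 fold change of the 23 was −0.04, near the 0.01 of all genes, with 9 above 0 and 14 below, from −0.88 to 0.72. Summed over all 49, the level was 229 and 213 CPM in KO, against 179.9, 210.1 and 169.6 CPM in controls, a ratio of means of 1.18 with both KO libraries above every control. Without Hist1h4i that ratio was 1.08, and the groups overlapped. The 5 genes of highest level per length (Hist1h4i, Hist1h1c, Hist1h2bc, Hist3h2ba and Hist2h2be) held 80.8% ± 3.12 of the CPM in KO and 77.0% ± 0.886 in controls and gave a ratio of 1.24, while the other 44 summed to 42.7 ± 9.01 CPM in KO and 43.1 ± 6.15 CPM in controls. The variants summed to 1169 and 1136 CPM in KO and to 1074, 1151 and 1098 CPM in controls, a ratio of 1.04 in which the groups overlapped.

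**Figure D3:**
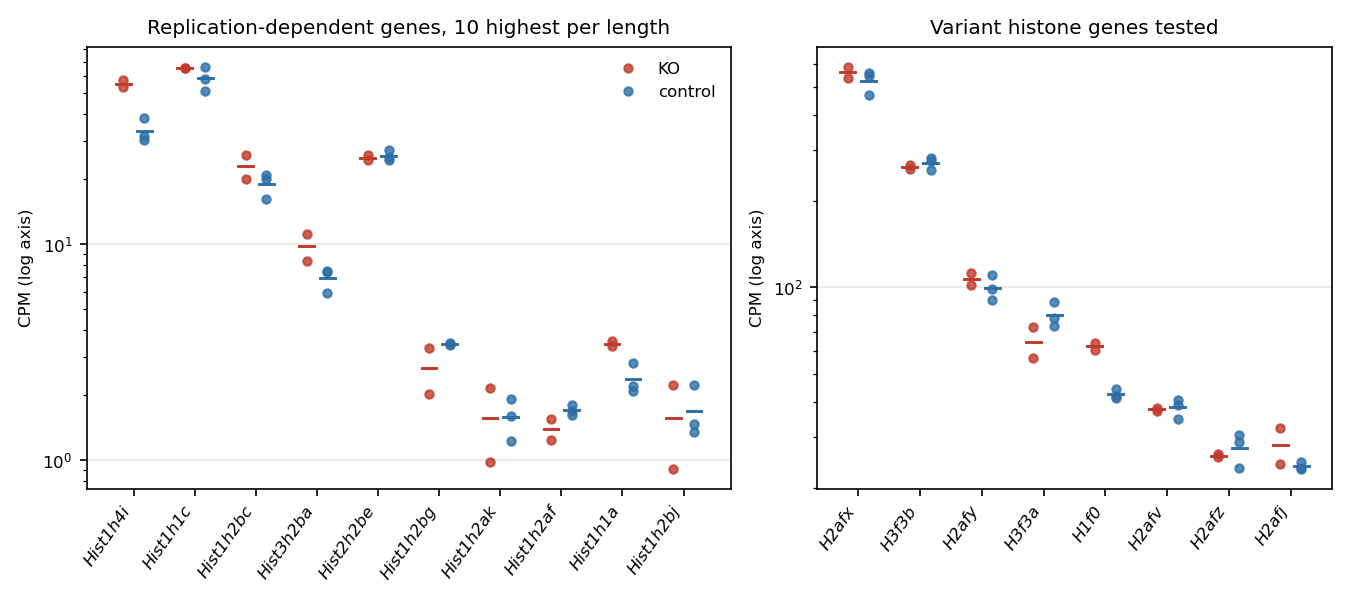
CPM (log axis) in each library for the 10 replication-dependent genes of highest level per length (left panel) and the 8 variants tested (right panel), with KO points left of control points and a bar at each mean. The KO and control points part for Hist1h4i (KO 57.2 and 53.1, controls 30.4 to 38.5) and H1f0 (KO 60.5 and 64.0, controls 41.3 to 44.3) and lie close together for Hist2h2be and H3f3b.

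Histone H4 forms a tetramer with H3 at the core of the nucleosome, and many near-identical genes encode the same protein. Of the 13 H4 members, 4 were tested and 1 rose, against 5.15% of all genes tested. This was Hist1h4i (ENSMUSG00000060639, a single-exon gene at chr13:22040636-22041362, minus strand, GRCm38). It had 744 and 819 counts in KO and 489, 505 and 439 in controls, which is 57.2 and 53.1 CPM in KO against 31.5, 38.5 and 30.4 CPM in controls. Every KO library lay above every control. The mean was 55.1 ± 2.91 CPM in KO and 33.5 ± 4.38 CPM in controls (SD, n = 2 and 3), a 1.65-fold difference (log2 fold change 0.72 ± 0.11 SE, 95% confidence interval 0.48 to 0.97, edgeR adjusted p = 0.0061). Without control replicate 3 the log2 fold change was 0.66 (edgeR adjusted p = 0.026).

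Per length, Hist1h4i was the highest of the replication-dependent genes, at 75.8 ± 4.0 CPM per kb in KO and 46.0 ± 6.03 CPM per kb in controls. It made up 89.7% ± 3.56 of the summed H4 level per length in KO and 84.4% ± 1.23 in controls, and 35.7% ± 1.35 and 26.5% ± 0.112 of that of all replication-dependent genes. Of its stretches of 50 bases, 71.1% occur in no other annotated gene. The gene that shares most of the rest, Hist1h4n, had 4 and 3 counts in KO and 4, 3 and 4 in controls. The sources used here do not say how reads mapping to several places were counted, and counts of these near-identical genes are therefore uncertain.

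The other H4 genes were low. Hist2h4, whose stem-loop has the same letters as that of Hist1h4i, had 3.07 and 2.59 CPM in KO, against 3.28, 3.66 and 2.08 CPM in controls. The groups overlapped (log2 fold change −0.09 ± 0.25, edgeR adjusted p = 0.87). Hist4h4, the H4 gene on chromosome 6, had 0.922 and 1.10 CPM in KO, against 0.836, 1.45 and 1.18 CPM in controls (log2 fold change −0.16 ± 0.29). Hist1h4m had 5 and 2 counts in KO and 0 in all 3 controls, and Hist1h4k had 14 and 3 counts in KO and 6, 7 and 5 in controls; neither had enough counts for the test. Of the members near Hist1h4i in its cluster, Hist1h2ag had 1 and 2 counts in KO against 1 in each control, and Hist1h2bj had 29 and 14 counts in KO against 21, 29 and 21 in controls. Hist1h2ah had 2 and 3 counts in KO against 7, 4 and 4 in controls, and Hist1h2bk had 1 and 1 in KO against 7, 6 and 5 in controls.

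The promoter of Hist1h4i is printed because the gene changed and its class differed from the others in promoter motifs. It is the RefSeq window from 250 bases before to 50 bases after the start (listed there as H4c9), in gene sense, with a match to TATAAA in capitals.
Hist1h4i, chr13:22041313-22041612, minus strand, GRCm38.p6: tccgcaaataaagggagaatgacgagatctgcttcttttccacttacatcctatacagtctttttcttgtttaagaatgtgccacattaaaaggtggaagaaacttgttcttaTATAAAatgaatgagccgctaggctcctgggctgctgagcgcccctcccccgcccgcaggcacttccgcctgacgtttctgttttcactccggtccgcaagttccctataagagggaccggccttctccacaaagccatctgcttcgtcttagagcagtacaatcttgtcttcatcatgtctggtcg
Promoters of this length were found for 45 of the 49 replication-dependent genes and 8 of the 9 variants, and were searched on both strands for TATAAA, for CCAAT and for AAACACA, the core of the H1 box. TATAAA stood in 29 of the 45 (64.4%), against 13.6% of all 32851 promoters. CCAAT stood in 36 of the 45 (80%), against 37.4% of all promoters: it was in all 5 H1, all 13 H2A, all 10 H2B and all 5 H3 promoters, but in 3 of the 12 H4 promoters. AAACACA stood in 4 of the 5 replication-dependent H1 promoters, against 7.18% of all promoters. A match describes letters in the window and is not a site of binding.

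Linker histones of the H1 family bind DNA where it enters and leaves the nucleosome. All 6 H1 members were tested, and 1 rose, against 5.15% of all genes tested. Together the 6 summed to 141 and 141 CPM in KO, against 111, 120.1 and 105 CPM in controls. The ratio was 1.26 with no overlap. Without H1f0, the 5 replication-dependent H1 genes summed to 80.3 and 77.5 CPM in KO, against 69.1, 78.8 and 60.3 CPM in controls. Their ratio was 1.14, and the groups overlapped. The median log2 fold change of all 6 was 0.45, against 0.01 over all genes. Of the 6, 4 had both KO libraries above every control, against 21.9% of all genes.

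H1f0 (ENSMUSG00000096210, a single-exon gene at chr15:79028450-79030504, plus strand, GRCm38) encodes H1.0, the replication-independent linker histone that accumulates in differentiated and non-dividing cells. It had 787 and 987 counts in KO and 648, 542 and 639 in controls, or 60.5 and 64.0 CPM in KO against 41.7, 41.3 and 44.3 CPM in controls. The groups did not overlap. The mean was 62.2 ± 2.45 CPM in KO and 42.4 ± 1.64 CPM in controls (SD, n = 2 and 3), a 1.47-fold difference (log2 fold change 0.55 ± 0.08 SE, 95% confidence interval 0.38 to 0.72, edgeR adjusted p = 0.0041). Without control replicate 3 the log2 fold change was 0.58 (edgeR adjusted p = 0.017). Of its stretches of 50 bases 94.3% occur in no other annotated gene. An antisense gene, Gm49544, overlaps it by 163 bases, and without a stated use of strand their reads cannot be told apart.

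Hist1h1c, which encodes H1.2, was the most abundant H1 gene per length. It had 65.4 and 65.3 CPM in KO, against 58.4, 66.0 and 51.0 CPM in controls. The KO values lay inside the range of the controls (log2 fold change 0.16 ± 0.11, 95% confidence interval −0.08 to 0.40, edgeR adjusted p = 0.39). Its share of the summed H1 level per length was 50.7% ± 0.171 in KO and 56.3% ± 2.93 in controls, and that of H1f0 was 36.7% ± 1.38 in KO and 31.3% ± 3.57 in controls.

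The other H1 genes were expressed at a few CPM. Hist1h1a (H1.1) had 3.54 and 3.37 CPM in KO, against 2.19, 2.82 and 2.08 CPM in controls, and Hist1h1d (H1.3) had 5.07 and 3.50 CPM in KO, against 2.90, 2.90 and 2.22 CPM in controls. Both genes had every KO library above every control without passing the test, with log2 fold changes of 0.55 ± 0.19 (edgeR adjusted p = 0.12) and 0.67 ± 0.22 (edgeR adjusted p = 0.10). Hist1h1b (H1.5) had the same order of groups at 2.84 and 2.27 CPM in KO, against 1.87, 2.13 and 2.01 CPM in controls (log2 fold change 0.34 ± 0.19, edgeR adjusted p = 0.36). Hist1h1e (H1.4) had the opposite sign, at 3.46 and 3.11 CPM in KO against 3.73, 4.95 and 2.98 CPM in controls, and the groups overlapped (log2 fold change −0.24 ± 0.23, edgeR adjusted p = 0.57). It overlaps Hist1h2be by 496 bases on the same strand, so reads of the 2 genes cannot be fully told apart. Hist1h1d passed only without KO replicate 2 (log2 fold change 0.92, edgeR adjusted p = 0.047), a fit in which 1 KO library is assumed to vary like the controls.

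**Figure D4:**
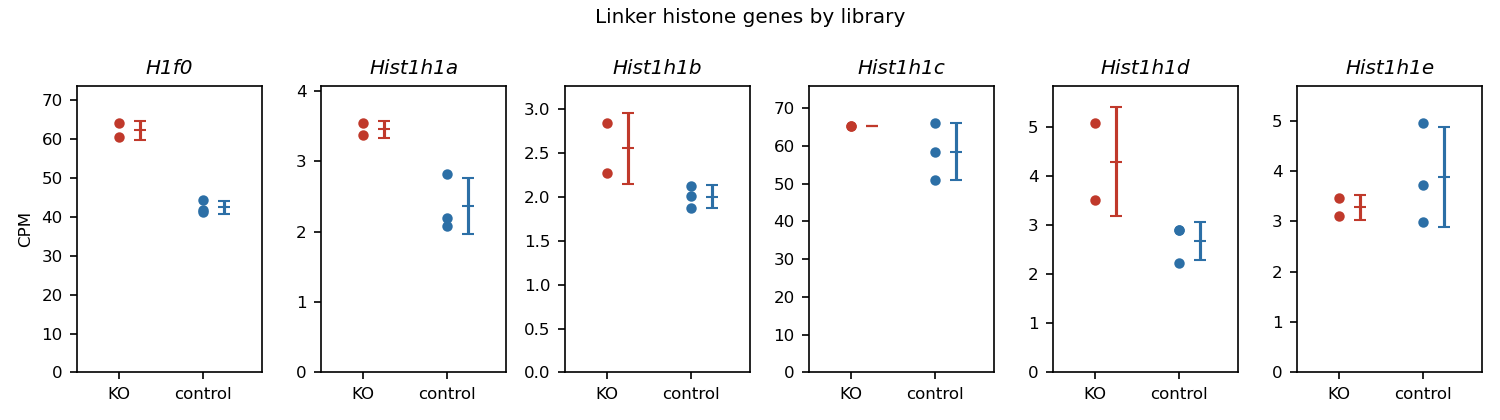
CPM of each linker histone gene by library (points) with the mean and SD beside them, KO left of control, each panel with its own axis from 0. KO points lie above all control points for H1f0 (60.5 and 64.0 against 41.3 to 44.3 CPM), Hist1h1a, Hist1h1b and Hist1h1d, and among them for Hist1h1c and Hist1h1e.

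Histone H2B genes made up 3 of the 5 highest replication-dependent genes per length. Of 12 members 8 were tested, and 0 passed in edgeR, DESeq2 or limma-voom. Over all genes tested, edgeR called 6.98% in either direction. Of the 8, 1 had an unadjusted p under 0.05, against 23.8% of all genes. Hist3h2ba, on chromosome 11, had 11.1 and 8.36 CPM in KO, against 5.92, 7.39 and 7.49 CPM in controls. Its groups did not overlap and it missed the threshold (log2 fold change 0.49 ± 0.17, 95% confidence interval 0.10 to 0.88, edgeR adjusted p = 0.13). Hist1h2bc had 20.1 and 25.7 CPM in KO, against 19.9, 20.9 and 16.2 CPM in controls, and the groups overlapped (log2 fold change 0.28 ± 0.14, edgeR adjusted p = 0.28). Hist2h2be, on chromosome 3, had 25.7 and 24.4 CPM in KO, against 24.4, 27.2 and 25.3 CPM in controls. The groups overlapped (log2 fold change −0.03 ± 0.09, 95% confidence interval −0.24 to 0.17, edgeR adjusted p = 0.87).

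Hist1h2bg, in the chromosome 13 cluster, had 3.30 and 2.01 CPM in KO, against 3.41, 3.43 and 3.47 CPM in controls. Both KO values were below every control, 1 of them narrowly (log2 fold change −0.39 ± 0.22, edgeR adjusted p = 0.32). It passed only without KO replicate 1 (log2 fold change −0.79, edgeR adjusted p = 0.031). Hist1h2bj (log2 fold change −0.12 ± 0.38) and Hist1h2bn (−0.88 ± 0.69) rested on 14 to 29 and 5 to 26 counts per library, and their groups overlapped. Hist1h2be had 1.61 and 1.17 CPM in KO, against 2.12, 2.29 and 1.60 CPM in controls (log2 fold change −0.54 ± 0.25, edgeR adjusted p = 0.23).

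Replication-dependent H2A and H3 genes contributed little to these libraries. The 13 H2A members summed to 11.7 and 9.27 CPM in KO, against 10.4, 11.1 and 11.8 CPM in controls, and the 6 H3 members to 3.61 and 2.85 CPM in KO, against 2.19, 3.73 and 3.19 CPM in controls. Neither sum separated the groups. Of the 4 H2A and 2 H3 genes tested, 0 passed in edgeR, DESeq2 or limma-voom and 0 had an unadjusted p under 0.05. Over all genes tested, edgeR called 6.98% in either direction, and 23.8% had an unadjusted p under 0.05. Hist1h2ak had 28 and 15 counts in KO and 19, 25 and 23 in controls (log2 fold change −0.03 ± 0.34), and Hist1h2af had 20 and 19 counts in KO and 25, 22 and 26 in controls (−0.30 ± 0.21, edgeR adjusted p = 0.53). The sequence of Hist1h2af is 6% unique, so its counts are among the most uncertain. Hist1h3c had 22 and 19 counts in KO and 17, 19 and 20 in controls (0.15 ± 0.25, edgeR adjusted p = 0.80).

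The 26 replication-dependent genes below the filter had 5 to 40 counts in total and 0 to 14 in any library. In 4 of them both KO libraries lay above every control and in 5 both lay below. At such counts the order can rest on library size alone. Hist1h2ag, among the 4, had 1 and 2 counts in KO and 1 in each control. The shares of all genes tested, 21.9% and 19.3%, are of genes that passed the filter and give no measure for these. Their summed level was 6.84 and 4.28 CPM in KO, against 5.21, 7.47 and 6.17 CPM in controls. By chromosome, the 40 replication-dependent members on chromosome 13 summed to 179 ± 7.86 CPM in KO and 146 ± 18.7 CPM in controls (ratio 1.22), of which Hist1h4i alone was 55.1 CPM in KO and 33.5 CPM in controls. The 2 on chromosome 11 summed to 12.3 ± 1.88 CPM in KO and 9.59 ± 0.951 CPM in controls (ratio 1.28). Both KO libraries lay above every control. Hist3h2ba, which did not pass, was 9.75 CPM of this in KO and 6.93 CPM in controls. Hist3h2a was 2.53 CPM in KO and 2.65 CPM in controls. The 6 on chromosome 3 summed to 28.7 ± 1.42 CPM in KO and 29.6 ± 1.98 CPM in controls (ratio 0.972), and the single gene on chromosome 6, Hist4h4, had a ratio of 0.877.

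**Figure D5:**
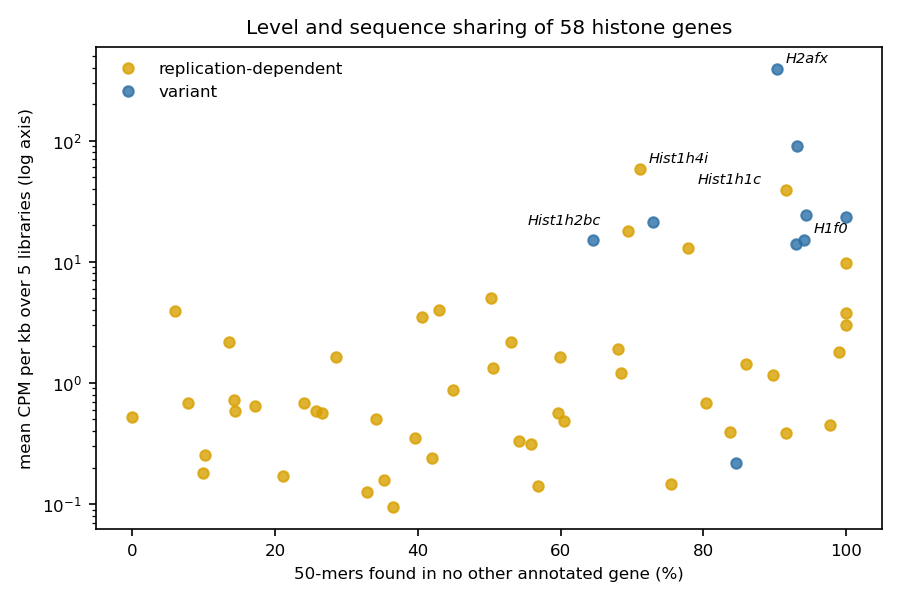
Mean CPM per kb over the 5 libraries (log axis) against the percentage of 50-base stretches found in no other annotated gene, for the 58 histone genes, replication-dependent and variant. H2afx is the highest point, Hist1h4i is the highest replication-dependent point at 71.1% unique, and the genes under 50% unique lie at 3.99 CPM per kb or less.

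Members that share most of their sequence with other genes were low in CPM, but not all ranked low per length. Hist1h2ak, Hist1h2af and Hist1h2bj, each under 50% unique, ranked 7, 8 and 10 per length among the replication-dependent genes. Under 50% unique stretches were found in 23 members, of which 4 were tested, and in these the summed level was 9.38 ± 3.91 CPM in KO and 10.3 ± 2.21 CPM in controls. The 35 members at 50% or more, of which 27 were tested, summed to 1364 ± 30.7 CPM in KO and 1284 ± 55.8 CPM in controls, and both genes that passed were among them. These 35 include all 9 variants, which alone summed to 1152 CPM in KO and 1108 CPM in controls. Whether reads mapping to several genes were kept is not known from the sources used here.

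Among the variants 8 of 9 were tested, with 1 higher (H1f0) and 0 lower in edgeR, DESeq2 and limma-voom. In edgeR 5.15% of all genes were higher and 1.83% lower. Of the 8 variants, 2 had an unadjusted p under 0.05, against 23.8% of all genes. The median log2 fold change of the 8 was 0.04. The most abundant histone gene, by CPM and by CPM per kb, was H2afx, whose product H2A.X is phosphorylated at DNA breaks and whose mRNA is made both with a stem-loop end and with a poly(A) tail. It had 586 and 539 CPM in KO, against 469.9, 559.8 and 545 CPM in controls. The groups overlapped (406 ± 24.2 CPM per kb in KO and 379 ± 34.8 CPM per kb in controls; log2 fold change 0.10 ± 0.10, edgeR adjusted p = 0.58).

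Histone H3.3, which replaces H3 outside replication, is made from a pair of genes. H3f3b had 259 and 268 CPM in KO, against 283, 275 and 256 CPM in controls, and the groups overlapped (log2 fold change −0.04 ± 0.07, 95% confidence interval −0.21 to 0.13, edgeR adjusted p = 0.79). H3f3a had 72.7 and 56.6 CPM in KO, against 78.0, 88.6 and 73.4 CPM in controls. Both its KO values lay below every control, the higher of them by little, and it missed the threshold (log2 fold change −0.31 ± 0.12, edgeR adjusted p = 0.16). It passed without KO replicate 1 (log2 fold change −0.52, edgeR adjusted p = 0.014) and was at −0.14 without KO replicate 2 (edgeR adjusted p = 0.58). Adding the counts of its pseudogenes H3f3a-ps1 and H3f3a-ps2 gave −0.32 (edgeR adjusted p = 0.17).

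The H2A variants did not pass. H2afj, encoding H2A.J, had 24.2 and 32.3 CPM in KO, against 23.3, 24.6 and 23.4 CPM in controls, so that 1 KO library stood above all others and the second among the controls (log2 fold change 0.26 ± 0.12, edgeR adjusted p = 0.25). It passed without KO replicate 1 (log2 fold change 0.42, edgeR adjusted p = 0.011). H2afz and H2afv, which encode the H2A.Z proteins placed at promoters, had log2 fold changes of −0.09 ± 0.12 and −0.02 ± 0.09, with 25.9 ± 0.433 and 37.7 ± 0.655 CPM in KO against 27.6 ± 3.73 and 38.1 ± 3.00 CPM in controls. H2afy, encoding macroH2A1, had 107 ± 7.52 CPM in KO and 99.7 ± 10.0 CPM in controls (log2 fold change 0.10 ± 0.10, edgeR adjusted p = 0.57). H2afy2, encoding macroH2A2, had 6 and 15 counts in KO and 8, 2 and 4 in controls and was not tested. Outside the symbol rule, Cenpa, the centromeric H3 variant, had 179 and 173 CPM in KO, against 145, 153 and 151 CPM in controls without passing (log2 fold change 0.23 ± 0.07, edgeR adjusted p = 0.069).

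Genes that transcribe and process replication-dependent histone mRNAs were read beside the members. Of 14 tested, 0 passed in edgeR or limma-voom and 1 was higher in DESeq2. In edgeR 5.15% of all genes were higher and 1.83% lower. The 14 had a median log2 fold change of −0.06, with 5 at an unadjusted p under 0.05, against 23.8% of all genes. Both KO libraries lay below every control in 6 of them and above in 2, against 19.3% and 21.9% of all genes. Slbp, the stem-loop-binding protein, had 315 and 314 CPM in KO, against 361, 353 and 360.4 CPM in controls. The groups did not overlap, and the difference was small and missed the threshold (log2 fold change −0.19 ± 0.07, edgeR adjusted p = 0.14). The same order was seen for Npat, which activates histone gene transcription (71.3 and 58.1 CPM in KO, against 82.8, 75.7 and 75.5 CPM in controls; −0.27 ± 0.10, edgeR adjusted p = 0.14). It was also seen for Casp8ap2, a processing factor known as FLASH (−0.19 ± 0.08, edgeR adjusted p = 0.20), and for Zfp473, whose human counterpart binds the stem-loop complex (−0.40 ± 0.14, edgeR adjusted p = 0.12). Lsm10 and Lsm11, the proteins particular to the U7 snRNP, had log2 fold changes of −0.10 ± 0.14 and −0.04 ± 0.14 with overlapping groups. Npat passed only without KO replicate 1 (−0.45, edgeR adjusted p = 0.0095). The gene of the list with the smallest p had the opposite sign: Sympk, the scaffold of the cleavage complex, had 428 and 454 CPM in KO, against 339.8, 386 and 369 CPM in controls, with no overlap (0.27 ± 0.08, edgeR adjusted p = 0.081). Srrt also had both KO libraries above every control (0.10 ± 0.07, edgeR adjusted p = 0.44).

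Histone chaperones and carriers divided. Of 26 tested, 2 were higher and 1 lower, with a median log2 fold change of 0.00, against 5.15% and 1.83% of all genes. Daxx, which deposits H3.3 with Atrx, had 86.4 and 71.6 CPM in KO, against 57.4, 62.7 and 59.2 CPM in controls (log2 fold change 0.40 ± 0.09, edgeR adjusted p = 0.037); it lies on chromosome 17, 1200 kb from Csnk2b. Ipo4, an importer of H3 and H4, had 97.6 and 109 CPM in KO, against 73.7, 86.4 and 79.8 CPM in controls (0.37 ± 0.09, edgeR adjusted p = 0.04). Asf1a, an H3 and H4 chaperone, had 43.3 and 42.5 CPM in KO, against 54.7, 54.4 and 53.3 CPM in controls (−0.34 ± 0.07, edgeR adjusted p = 0.027). None of the 3 had groups that overlapped, and the calls depended on the setting: of 12 alternatives Daxx passed in 6, Ipo4 in 7 and Asf1a in 6, with edgeR adjusted p up to 0.15, 0.16 and 0.12. All 3 lost the call with no filter on low counts and when any single control library was left out, Daxx also without KO replicate 1 (edgeR adjusted p = 0.066), and Asf1a and Ipo4 also without KO replicate 2 (0.055 and 0.15). Daxx and Asf1a lost it with the replicate number as a block as well (0.057 and 0.07).

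Because replication-dependent histone genes are used in S phase, 25 S phase genes were read in the same way. Of these 0 were higher and 1 lower, against 5.15% and 1.83% of all genes. The 1 lower was Tyms, which makes thymidylate for DNA synthesis. It had 123 and 114 CPM in KO against 147, 149.9 and 141 CPM in controls (log2 fold change −0.30 ± 0.07, edgeR adjusted p = 0.04). Tyms passed in 6 of 12 alternatives. The call was lost with no filter on low counts, when any single control library was left out, and when KO replicate 2 alone was left out. It was also lost with the replicate number as a block (edgeR adjusted p = 0.082). DESeq2 and limma-voom gave the same counts, and 7 of the 25 had an unadjusted p under 0.05, against 23.8% of all genes. The median log2 fold change was −0.13, with 24 of 25 below 0 and both KO libraries below every control in 16, against 19.3% of all genes. Their summed level was 11451 and 11055 CPM in KO, against 12191, 12440.1 and 12409.8 CPM in controls, a ratio of 0.911. The ratio of 1.18 for the replication-dependent histone genes was 1.24 over the 5 of highest level per length and 0.991 over the other 44. Gene by gene, 14 of the 23 tested were below 0, with a median log2 fold change of −0.04. The part that S phase, the macrophage markers or control replicate 3 may have in the histone values was not tested, beyond the values given without that library.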

How the data were processed

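The 5 libraries of TER119+ fetal liver cells, 2 KO and 3 control, were grouped by the labels' genotypes. Selection on oligo-dT beads and sequencing on the Ion Proton are per the labels' protocols. HTSeq, STAR, Bowtie, cutadapt and mm10 are named in the submitters' processing notes. Versions, annotation, strand use and the handling of reads that map to several places were not given there. The deposited file holds raw counts per gene, not normalised by the authors.

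Members and lists were chosen with earlier results of these data known. Counts were tested with edgeR 4.0.16 in R 4.3.3 (TMM factors 0.970 to 1.03, filterByExpr, quasi-likelihood test of group, 3 residual degrees of freedom) and p-values adjusted by Benjamini-Hochberg over 13000 genes, threshold 0.05. The steps were tested on simulated data. CPM are counts over the TMM-adjusted library size; per-kb values use the union of exons in GENCODE M21, to which 37607 of the 39179 identifiers matched and which also gave gene types, ends and 50-base sharing. A stem-loop was a run of 16 bases starting GG and ending CC, with 6-base arms, at most 1 unpaired position and a loop of 4 starting TT, within 100 bases of the stop codon, a limit chosen after the data were seen. Promoters are those of RefSeq. Reads without molecular identifiers are not independent molecules, so limits from counts cover counting error only.

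Named by rule were all members past the threshold, the 10 replication-dependent members of highest CPM per kb, all variants tested, the largest and smallest fold change per histone class, Csnk2b, Slbp, Npat, Casp8ap2, Lsm10, Lsm11, Zfp473 and list genes past the threshold. Hist1h1b, Hist1h2ag, Hist1h2ah, Hist1h2be, Hist1h2bk, Hist1h4k, Hist1h4m, Hist1h4n, Hist2h4, H2afy2, H3f3c, H1fx, Cenpa, Sympk, Srrt and the marker, pseudogene and sex-linked genes were named after their values were seen. Alternatives were RLE scaling, scaling without globin genes, DESeq2 1.42.0, limma-voom 3.58.1, no filter, at least 5 CPM in 2 libraries, the replicate number as a block and each library left out. No column was left out (0).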

Additional observations from a re-analysis of the deposited data

How the results depend on the processing

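H1f0 and Hist1h4i kept their direction and stayed past the threshold in all 12 alternatives run for each, at log2 fold changes of 0.51 to 0.58 (adjusted p 1.3e-04 to 0.038) and 0.65 to 0.83 (adjusted p 1.4e-05 to 0.049). Other histone genes that crossed the threshold did so in 1 fit each and are given with their values in the text.

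Leaving out 1 library at a time gave 210 to 1709 genes higher and 31 to 1247 lower over all genes, the most without KO replicate 1. It gave 1 to 2 replication-dependent genes higher and 0 to 1 lower, and 1 to 2 variants higher and 0 to 1 lower. Their medians ranged from −0.100 to 0.136 and from −0.011 to 0.031, and their ratios of summed CPM from 1.13 to 1.26 and from 1.02 to 1.06. Chaperones higher ranged from 0 to 2 and lower from 0 to 6, processing genes from 0 to 1 in either direction, and S phase genes lower from 0 to 9. Without 1 KO library the remaining 1 is assumed to vary like the controls. Signs turned in 7 genes, none past the threshold on either side: without KO replicate 1 for Lsm11 (0.11) and Hist1h3c (−0.10), without KO replicate 2 for Hist2h2be (0.00), Hist1h2ak (0.46) and Hist1h2bj (0.43), and without control replicate 2 for Hist2h2be (0.01), Hist1h2ak (0.12), Hist1h2bj (0.12), H2afv (0.03), Lsm11 (0.05) and Hist4h4 (0.02). Over these fits the 7 genes ranged from −0.09 to 0.01 (Hist2h2be), −0.70 to 0.46 (Hist1h2ak), −0.88 to 0.43 (Hist1h2bj), −0.08 to 0.03 (H2afv), −0.24 to 0.11 (Lsm11), −0.10 to 0.37 (Hist1h3c) and −0.36 to 0.02 (Hist4h4).

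With no filter on low counts, which tests 21077 genes, 235 genes were higher and 53 lower, and the chaperones (0 higher, 0 lower) and S phase genes (0 lower) had no call. With at least 5 CPM in 2 libraries, the median over the fewer replication-dependent genes left was 0.268. DESeq2 called 1 processing gene higher. The replicate numbers do not pair the libraries: deviations of same-numbered libraries correlated at 0.01 and 0.07 across genes. With the replicate block, H1f0 (0.58, adjusted p = 0.0034) and Hist1h4i (0.66, adjusted p = 0.0034) passed, 1 chaperone was higher and 0 lower, and 0 S phase genes were lower, with adjusted p of 0.057 for Daxx, 0.07 for Asf1a and 0.082 for Tyms. With 13 to 15.5 counts per CPM, members under about 1 CPM rest on few counts.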

Other observations

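H3f3c, on chromosome 2, is protein-coding in RefSeq and a processed pseudogene in GENCODE M21, so the rule did not take it. It had 141 and 84.2 CPM in KO, against 38.6, 40.4 and 106 CPM in controls. Control replicate 3 lay between the KO libraries, and the difference did not pass (log2 fold change 0.87 ± 0.40, edgeR adjusted p = 0.22). H1fx, which encodes the linker histone H1.X and falls outside the symbol rule, had 0.922 and 1.17 CPM in KO, against 0.579, 0.381 and 0.624 CPM in controls (log2 fold change 0.97 ± 0.30, edgeR adjusted p = 0.10).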
